A study of Homo sapiens with 6 samples.

Results

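The proteasome genes were taken as every protein-coding gene whose RefSeq symbol (GRCh38.p14) begins with PSMA, PSMB, PSMC, PSMD, PSME, PSMF or PSMG and ends in a number. The rule gave 48 of 20033 protein-coding genes on the nuclear chromosomes, of which the interferon-inducible catalytic subunits PSMB8, PSMB9 and PSMB10 are described apart. Their chromatin accessibility was read from peak lists of ATAC-seq, an assay in which a transposase inserts sequencing adapters into open DNA. The cells were of the human multiple myeloma line ARP1. A knockout of KDM6A, an enzyme that removes repressive methyl marks from histone H3, was compared with wild-type ARP1 to ask how KDM6A affects DNA accessibility. Each genotype had 3 libraries, numbered as bioreps 1 to 3 in the labels, and no treatment was named for either genotype. The labels do not say whether the knockout was 1 clone or a pool, or whether bioreps were separate cultures, so the tests below measure only the spread between these libraries.

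The proteasome degrades proteins that carry ubiquitin chains. Its 20S core is a barrel of alpha rings, which gate the entrance, around beta rings that hold the proteolytic sites, and the 19S particle on its ends binds, unfolds and feeds in the substrate. Plasma cells secrete large amounts of antibody, and myeloma cells are known to be sensitive to drugs that block the core, such as bortezomib, which binds PSMB5. Under interferon the catalytic subunits are replaced by PSMB8, PSMB9 and PSMB10, and the resulting immunoproteasome trims peptides for presentation on MHC class I.

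The lists held 33055 to 37314 peaks on the nuclear chromosomes in the knockout and 54443 to 56048 in the wild type. The caller's background pileup, recovered from the spacing of the folds, was 2.31 ± 0.26 for knockout and 3.52 ± 0.36 for wild-type libraries (SD, n = 3), and the weakest peak had a fold of 3.23 ± 0.12 and 2.81 ± 0.10, respectively. Read counts were not at hand, so the gap in background pileup is taken here as a gap in depth. It runs along the genotypes, so depth and genotype cannot be told apart in a count of peaks. KDM6A itself had a gene-end peak in every list (folds of 11.4, 15.1 and 12.6 in knockout and 8.76, 13.6 and 10.7 in wild-type replicates 1 to 3), which does not check the knockout, since the deleted part is not given in the labels. As percentiles among the strongest 33055 peaks of each list, where 100 is the strongest, these peaks stood at 75.9, 82.4 and 81.2 in the knockout and 47.5, 65.2 and 57.2 in the wild type, so the ranks did not overlap while the folds did. Of 8 plasma cell markers 5 were called at a gene end in every list (SDC1, TNFRSF17, IRF4, XBP1 and CD38). SLAMF7 was called in 0 knockout and 2 wild-type lists and JCHAIN in 0 and 3. PRDM1 was called at a gene end in 1 and 3, with a peak near a RefSeq start in every list. In every list a gene end was called for 0 of 4 B cell, 0 of 3 myeloid, 0 of 2 epithelial and 0 of 3 erythroid markers, and for 1 of 3 T cell markers (CD3E). Some of these markers were called in part of the lists: PAX5 (B cell) in 2 knockout and 3 wild-type lists, HBA1 (erythroid) in 3 and 2, CD2 (T cell) in 0 and 2, and KRT8 (epithelial) in 0 and 1. MS4A1, CD22, CD14, CSF1R and MPO had no peak in any list.

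Most proteasome genes had an accessible gene end in both genotypes. A gene end was called in a list when a peak of that list overlapped the 1 kb on either side of the first or last base of the gene record. By this measure 39 of 48 proteasome genes (81.2%) were called in all 6 lists, against 54.7% of all protein-coding genes, and with lists of equal length 39 again, against 51.9%. The knockout lists held a gene-end peak for 42, 42 and 40 of the 48 genes and the wild-type lists for 42, 41 and 42. Over all protein-coding genes the shares were 57.2, 58.4 and 58.1% in the knockout lists and 60.6, 61.9 and 61.1% in the wild-type lists. No peak at either end was called in any list for 5 genes (background 35.3%), which were PSMA6, PSMB6, PSMB11, PSMF1 and PSMG4. PSMA7, PSMA8, PSMC1 and PSMG2 were called in some lists.

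Gene records often begin upstream of the start that is used, so the same 1 kb windows were also laid around RefSeq start sites, which were at hand for 42 of the 48 genes. Of these, 39 (92.9%) had a start peak in all 6 lists, against 58.3% of the 15841 protein-coding genes with an entry, and 1 of 42, PSMB11, had none in any list, against 33.9%. The start windows added PSMA6, PSMF1, PSMG2 and PSMG4, and with either window 43 of 48 genes were covered in all 6 lists. Allowing either window can only raise the count, and the share over all protein-coding genes was not counted for it. The 5 that were not were PSMA7, PSMA8, PSMB6, PSMB11 and PSMC1. Summits lay close to the starts: in 31 of the 35 genes that had a start entry and were called at a gene end in every list, the median summit was within 250 bp of a RefSeq start. The same share over all protein-coding genes was not counted.

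With either end counting for a gene, no proteasome gene was called in 1 genotype only. A feature was WT-only when all 3 wild-type lists and no knockout list held it, and KO-only when the reverse was true. By this count 41 proteasome genes were called in every wild-type list and 0 of them were WT-only, against 1.75% of all genes, and of the 39 called in every knockout list 0 were KO-only, against 0.0453%. With each list shortened to its strongest 33055 peaks, the length of the shortest list, the counts were 0 of 40 (background 0.547%) and 0 of 39 (background 0.914%). Start windows gave 0 WT-only (background 1.21%) and 0 KO-only proteasome genes (background 0.0323%). With each end counted on its own, a count chosen after seeing the data, 1 of 43 proteasome gene ends called in all wild-type lists was WT-only (background 2.4%), the lower-coordinate end of PSMB8, and 0 of 40 were KO-only (background 0.0507%). At equal length these counts were 0 of 41 (background 0.827%) and 0 of 40 (background 1.07%). The background shares were themselves so low that counts of 0 or 1 do not set the proteasome genes apart.

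The strength of each gene's strongest gene-end peak was therefore compared as its percentile by −log10 p-value within the list, where 100 is the strongest peak. Ranks in lists of different lengths are not comparable, so all percentiles below are from the lists of equal length unless stated. The fold is the authors' enrichment over background and is given as each peak's own value. Across the 39 genes measured in every list, mean percentiles over 6 libraries ran from 31.3 (PSMB5) to 98.3 (PSMG1) with a median of 74.7, and 35 of 39 (89.7%) lay above 50, against 87.1% of all genes. The median percentile of the proteasome genes called in a list was 74.0, 75.9 and 75.9 in knockout replicates 1 to 3 and 73.3, 74.3 and 67.6 in wild-type replicates 1 to 3. Over all protein-coding genes the same medians were 78.2, 78.0 and 78.4, and 74.8, 76.2 and 74.1.

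**Figure D1:**
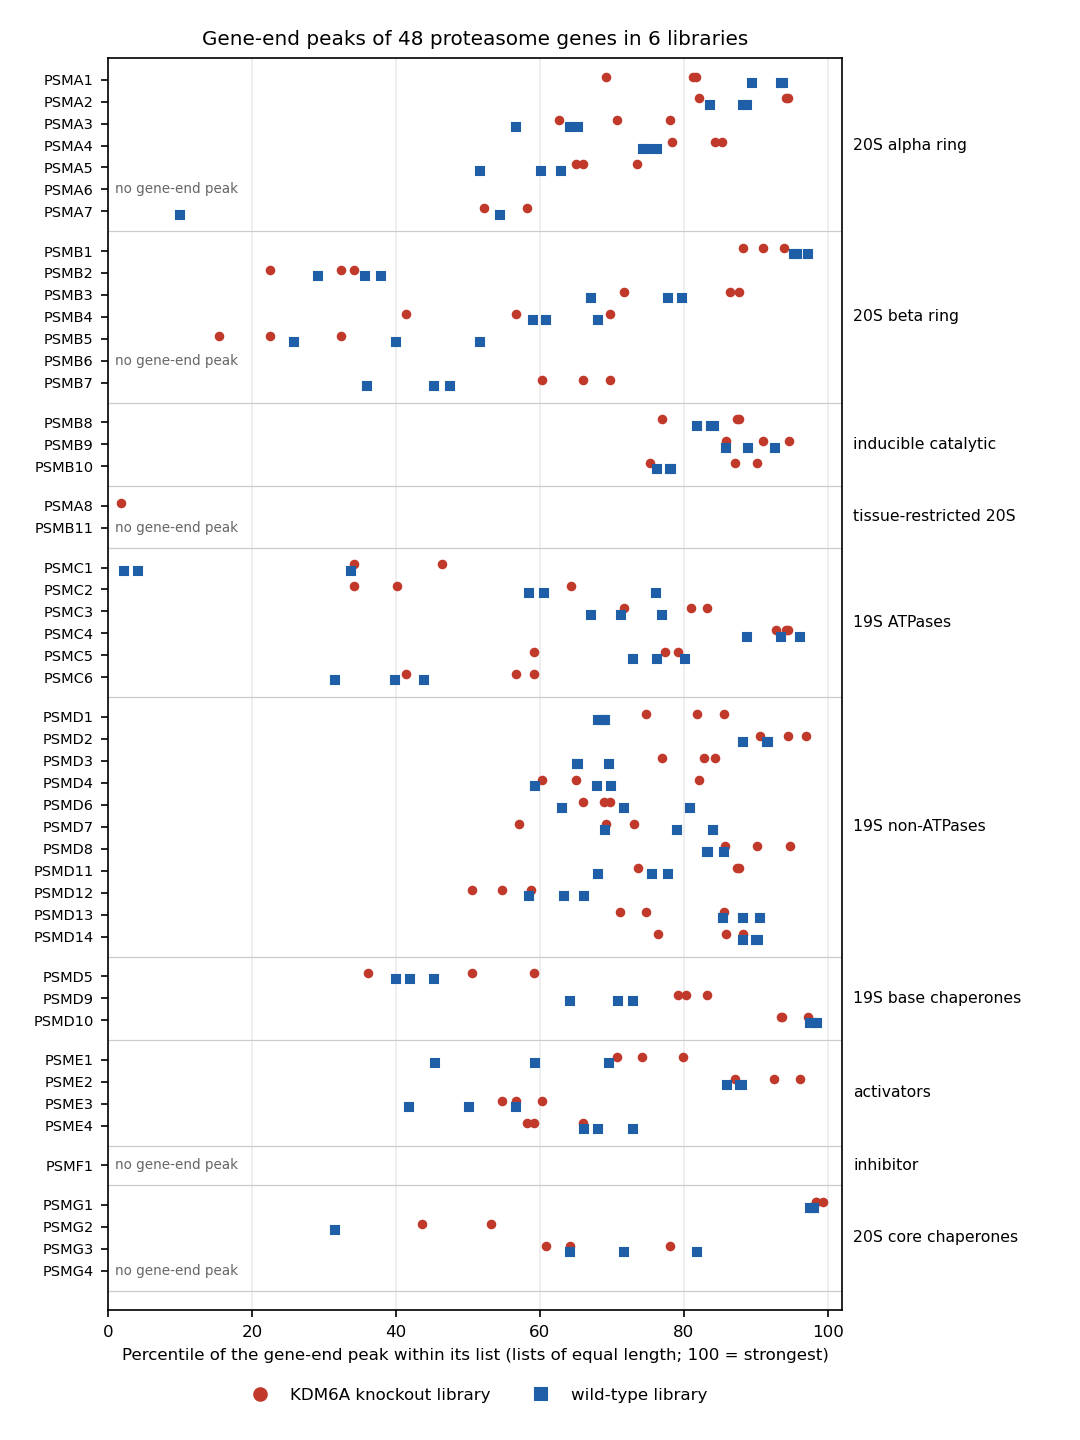
Percentile of the strongest gene-end peak of each of the 48 proteasome genes (x axis, 100 = strongest peak of the list) in 3 knockout libraries (red circles) and 3 wild-type libraries (blue squares), in lists cut to 33055 peaks and grouped by the role of the protein. Most genes sit above 50 in both genotypes, PSMB5 and PSMB2 are the lowest of those measured in all 6 libraries, and the 5 genes with no peak at a gene end in any list are marked in their rows.

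Between genotypes, most proteasome genes overlapped. All 3 wild-type percentiles lay above all 3 knockout percentiles in 5 of 39 genes (12.8%), against 12.5% of all genes measured, and these were PSMA1, PSMB1, PSMD10, PSMD14 and PSME4. All 3 knockout percentiles lay above all 3 wild-type ones in 9 of 39 genes (23.1%), against 26.0%, and these were PSMA4, PSMA5, PSMB7, PSMD1, PSMD3, PSMD8, PSMD9, PSME1 and PSMG1. Both shares were near the background. The knockout mean was the higher one in 24 of 39 genes (61.5%), against 59.8% of all genes, and the median difference, knockout minus wild type, was 3.35 percentile points, against 1.93 over all genes. For each of the 14 separated genes the two-sided exact permutation p was 0.1, the smallest that 20 labellings of 3 against 3 libraries allow, and adjusted over all 10407 genes by Benjamini-Hochberg it was 0.26. None passed a threshold of 0.05, which this design cannot reach. In the full lists the split was 17 genes with wild type above knockout (background 38.3%) and 0 with knockout above wild type (background 6.91%). Leaving out 1 library leaves fewer values to overlap: wild type above knockout then counted 8 of 39 genes without knockout replicate 3 (20.5%, against 19% of all genes) and 10 of 39 without wild-type replicate 3 (25.6%, against 17.2%). Knockout above wild type counted 14 of 40 without knockout replicate 2 (35.0%, against 31.4%) and 16 of 39 without knockout replicate 3 (41.0%, against 32.8%). Wild type lay above knockout in 12.8% without knockout replicate 1 (against 15.3%) and 17.5% without knockout replicate 2 (against 15.5%). Without wild-type replicates 1 and 2 it did so in 12.8% (against 15.4%) and 15.4% (against 14.7%). Knockout lay above wild type in 25.6% without knockout replicate 1 (against 31.2%). Without wild-type replicates 1 to 3 it did so in 30.8, 23.1 and 23.1% (against 29.5, 34.6 and 29.8%). Shares lay on both sides of the background.

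**Figure D2:**
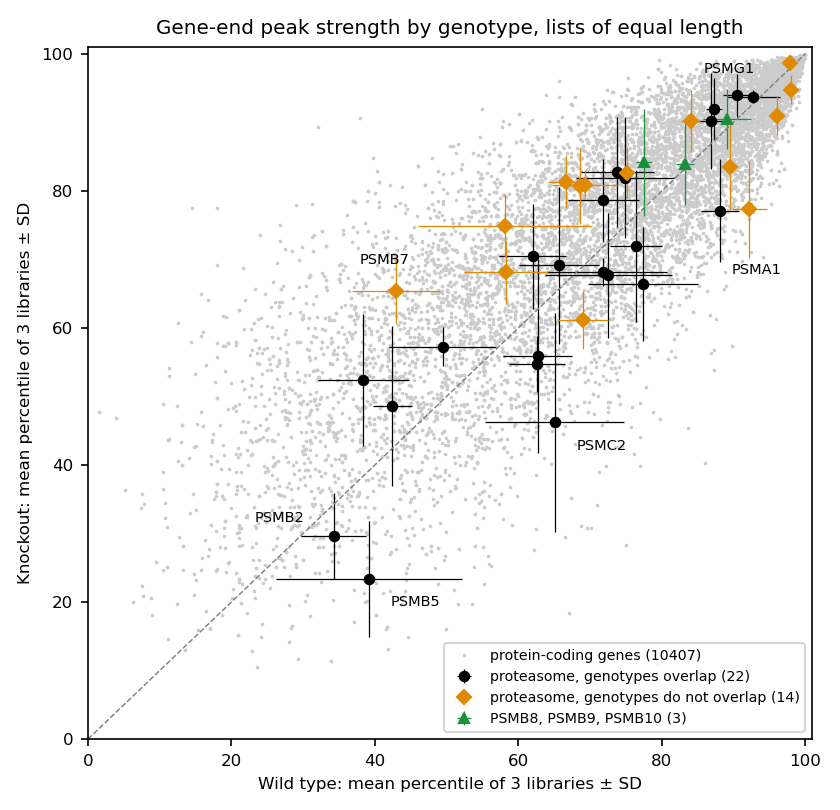
Mean percentile of the strongest gene-end peak in wild-type (x axis) and knockout (y axis) libraries, lists of equal length, with SD bars over 3 libraries each. Grey points are 10407 protein-coding genes, black circles the 22 proteasome genes whose genotypes overlapped, orange diamonds the 14 whose genotypes did not, and green triangles PSMB8, PSMB9 and PSMB10; the proteasome genes lie on both sides of the dashed line of equality.

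Among the alpha subunits, which form the gate of the core, PSMA1 had the lower peak in the knockout. Its gene-end percentiles were 69.1, 81.6 and 81.2 in knockout replicates 1 to 3 and 89.4, 93.8 and 93.5 in wild-type replicates 1 to 3, or 77.3 ± 7.10 and 92.2 ± 2.44 (SD, n = 3). That peak (chromosome 11, 14642910 to 14645444) also covers an end of PDE3B, a phosphodiesterase gene, and its summit lies at -123464 bp from the RefSeq start of PSMA1, far upstream. At the start itself the percentiles were 79.2, 84.6 and 79.4 in the knockout and 94.9, 93.9 and 96.5 in the wild type, so both peaks were lower in every knockout library.

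PSMA4 and PSMA5 went the other way. PSMA4 stood at 84.3, 85.3 and 78.4 in the knockout and 74.8, 74.3 and 76.2 in the wild type. PSMA5 stood at 73.4, 65.0 and 66.0 in the knockout and 62.9, 60.2 and 51.7 in the wild type. In the full lists both differences changed sign, to -1.24 for PSMA4 and -4.54 for PSMA5, and the genotypes overlapped.

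PSMA2 was at 94.1, 94.4 and 82.1 in the knockout and 88.8, 83.6 and 88.2 in the wild type, and overlapped. PSMA6 had no gene-end peak, yet its start peak was called in every list with folds of 9.03, 9.18 and 8.98 in the knockout and 12.0, 14.8 and 10.7 in the wild type. Its percentiles at the start were 64.2, 59.2 and 66.0 against 67.2, 69.6 and 57.2, which overlapped. PSMA7 (chromosome 20, 62136733 to 62143394) was the alpha gene with the least steady calls. Its strongest peaks had folds of 8.13 and 8.20 in knockout replicates 1 and 2, and none was called in knockout replicate 3. The wild-type folds were 4.70, 6.32 and 10.3, and the wild-type replicate 1 peak (62144187 to 62144525) lay apart from the main region. That region, 62142581 to 62143935, also covers an end of SS18L1.

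Of the constitutive beta subunits, PSMB5 carries the chymotrypsin-like site that bortezomib binds, PSMB6 the caspase-like site and PSMB7 the trypsin-like site. PSMB5 had the lowest mean percentile of the genes measured in all 6 libraries. Its percentiles were 15.4, 32.3 and 22.4 in the knockout and 40.0, 25.8 and 51.7 in the wild type, with folds of 4.51, 6.23 and 4.77 and of 7.90, 7.53 and 9.85. Wild-type replicate 2 fell within the knockout range, and the difference of -15.8 points had an exact permutation p of 0.2. The pileup at the PSMB5 summit was only 14, 18 and 16 in the knockout and 36, 30 and 46 in the wild type. For the count of 14 the exact 95% Poisson interval was 7.65 to 23.5, which like all such intervals covers counting error only. The 250 bases before the more upstream of the 2 RefSeq starts of PSMB5 are shown because this weak peak (chromosome 14, 23034562 to 23035381) overlaps them. They are from RefSeq GRCh38.p14, chr14:23035221-23035470, minus strand, 5′ to 3′, with a CCAAT box and an AAGATGG match to the YY1 motif in capitals.

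PSMB5: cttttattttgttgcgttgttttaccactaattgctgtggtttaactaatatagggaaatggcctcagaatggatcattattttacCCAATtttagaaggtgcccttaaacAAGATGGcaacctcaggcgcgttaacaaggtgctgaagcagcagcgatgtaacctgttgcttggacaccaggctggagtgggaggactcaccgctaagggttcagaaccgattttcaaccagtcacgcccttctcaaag

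PSMB7 showed the largest difference in favour of the knockout. Its peak (chromosome 9, 124414918 to 124415938) stood at 60.3, 69.7 and 66.0 in the knockout libraries and 47.5, 45.3 and 36.0 in the wild-type ones. This is a difference of 22.4 points between means of 65.3 ± 4.73 and 42.9 ± 6.15 (SD, n = 3). The folds were close, at 8.43, 11.2 and 8.98 against 8.76, 9.72 and 7.96, so the gap is one of rank among the strongest 33055 peaks of each list. PSMB6 (chromosome 17, 4796164 to 4798495) had no gene-end peak in any list and no RefSeq start entry. The nearest region called in all 6 lists (4789685 to 4790648) was 5516 bp away, and another called in 3 knockout and 2 wild-type lists (4806796 to 4807525) was 8301 bp away. The 3 catalytic genes thus ranged from no call to a mid-ranked peak, and none was among the strongest of the complex.

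PSMB1, a structural beta subunit, had one of the strongest peaks, at 93.9, 88.2 and 90.9 in the knockout and 97.2, 95.2 and 95.7 in the wild type. This peak (chromosome 6, 170552669 to 170555326) also covers an end of TBP, the TATA-binding protein gene. PSMB2 had one of the weakest, at 34.2, 32.3 and 22.4 against 37.9, 35.8 and 29.1, and overlapped. PSMB3 and PSMB4 overlapped as well, with means of 81.9 ± 8.84 and 74.9 ± 6.78 for PSMB3 and of 56.0 ± 14.2 and 62.7 ± 4.78 for PSMB4, knockout first.

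The inducible genes PSMB8, PSMB9 and PSMB10 had strong peaks in every library, and at equal list length none separated the genotypes. PSMB8, which takes the place of PSMB5, stood at 87.6, 77.0 and 87.3 in the knockout and 83.8, 81.8 and 84.1 in wild-type libraries, which differ by 0.74 points in the mean (exact permutation p = 1). PSMB9, which takes the place of PSMB6, stood at 94.6, 85.9 and 90.9 against 85.9, 92.6 and 88.8, a difference of 1.38 points (exact permutation p = 0.8). PSMB10, which takes the place of PSMB7, stood at 90.2, 87.1 and 75.3 against 76.3, 78.1 and 78.2, a difference of 6.67 points (exact permutation p = 0.4). For all 3 genes every wild-type percentile at equal length lay inside the knockout range. The folds were 15.7, 13.1 and 15.2 against 17.1, 19.4 and 17.8 for PSMB8, and 21.1, 16.7 and 17.4 against 18.2, 28.2 and 20.3 for PSMB9. For PSMB10 they were 17.2, 17.4 and 10.9 against 14.3, 17.7 and 15.5. The PSMB8 folds were lower in every knockout library than in any wild-type one, and so were its percentiles in the full lists, at 87.6, 79.6 and 88.4 against 90.1, 89.0 and 90.6. Full-list percentiles separated in this direction in 38.3% of all genes measured. The median fold over all protein-coding genes called was 12.0, 13.1 and 11.8 in the knockout and 13.0, 16.3 and 13.4 in the wild type. PSMB9 and PSMB10 overlapped by fold. The constitutive counterparts PSMB5 and PSMB7 had lower percentiles than PSMB8 and PSMB10 in every one of the 6 libraries, as a comparison of ranks within each list.

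PSMB8 and PSMB9 flank TAP1, a subunit of the transporter that carries peptides into the endoplasmic reticulum, on chromosome 6. The PSMB8 region (32843480 to 32846057) and the PSMB9 region (32852771 to 32855153) each cover an end of TAP1, so their peaks cannot be assigned to 1 gene. The PSMB9 summit had a median position of -334 bp from its RefSeq start, upstream of it. The PSMB10 region (chromosome 16, 67934854 to 67937493) covers no other coding gene's end, and its summit lay 1026 bp downstream of the PSMB10 start. The 250 bases before the first listed start of each inducible gene follow, from RefSeq GRCh38.p14, 5′ to 3′: PSMB8 chr6:32844680-32844929 on the minus strand, PSMB9 chr6:32853942-32854191 on the plus strand and PSMB10 chr16:67936851-67937100 on the minus strand. They are shown because an interferon-stimulated element (GAAA, any 2 bases, GAAA) is matched just before the start of PSMB10. Capitals mark this match in PSMB10, at -21 from the start, and in PSMB9 the CCAAT box, 2 GC boxes (GGGCGG) and, on the other strand, a match to TGACNNNGC, the core of the antioxidant response element. The PSMB8 stretch holds none of the searched motifs; its interferon element match is at -4 from the second RefSeq start, outside these bases.

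PSMB8: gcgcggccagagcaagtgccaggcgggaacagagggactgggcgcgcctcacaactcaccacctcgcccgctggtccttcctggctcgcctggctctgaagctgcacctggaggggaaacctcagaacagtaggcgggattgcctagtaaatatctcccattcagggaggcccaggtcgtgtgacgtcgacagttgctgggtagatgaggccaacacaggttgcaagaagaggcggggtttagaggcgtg
PSMB9: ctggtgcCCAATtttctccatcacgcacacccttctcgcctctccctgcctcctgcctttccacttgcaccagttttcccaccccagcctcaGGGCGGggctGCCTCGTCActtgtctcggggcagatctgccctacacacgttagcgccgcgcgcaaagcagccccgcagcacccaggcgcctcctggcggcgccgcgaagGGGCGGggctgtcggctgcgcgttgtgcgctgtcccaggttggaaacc
PSMB10: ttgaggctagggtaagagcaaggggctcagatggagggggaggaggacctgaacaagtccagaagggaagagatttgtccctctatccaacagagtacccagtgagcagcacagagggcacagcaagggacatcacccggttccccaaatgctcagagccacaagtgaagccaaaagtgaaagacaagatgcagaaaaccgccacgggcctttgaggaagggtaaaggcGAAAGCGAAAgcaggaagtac

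**Figure D3:**
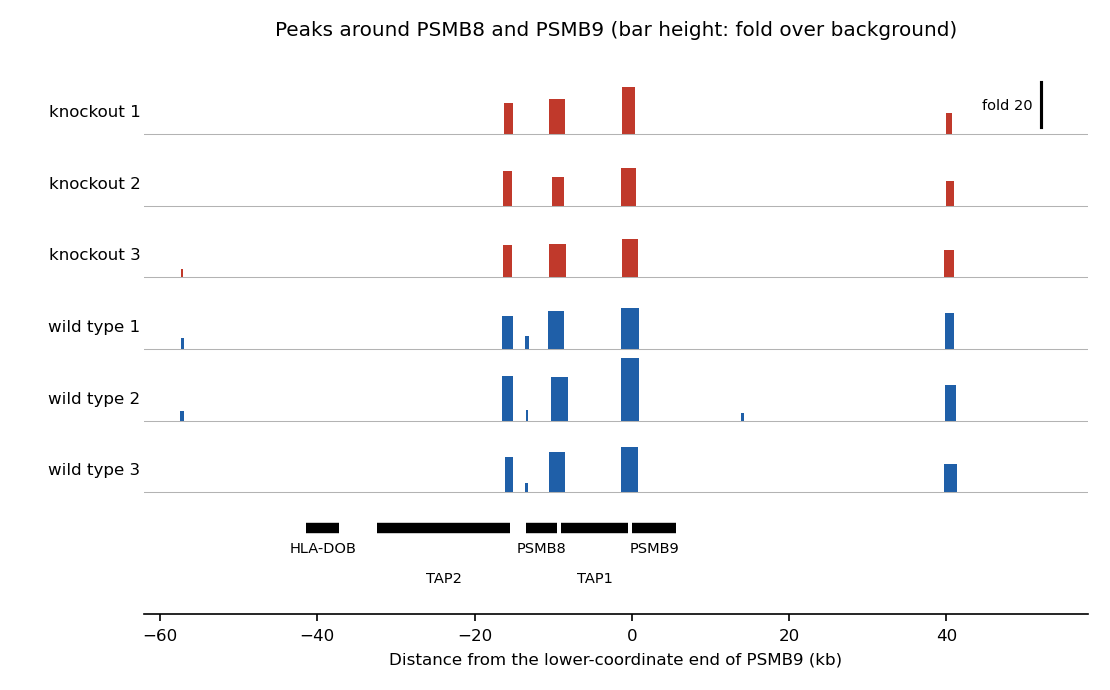
Peaks of the 6 libraries around PSMB8, TAP1 and PSMB9, by distance in kb from the lower-coordinate end of PSMB9 (x axis), with bar height as fold over background (scale bar, fold 20) and gene records as black bars. Peaks at both ends of TAP1 and at the end of TAP2 are present in all 6 libraries, and the small peak at the other end of PSMB8 is present in the 3 wild-type libraries only.

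The tissue-restricted core genes were mostly without peaks. PSMB11, the catalytic subunit of the thymic cortex, had no gene-end or start peak in any list. PSMA8, an alpha subunit of germ cells, was called in knockout replicate 2 at a fold of 4.26 and in wild-type replicate 1 at 3.84, at percentiles of 12.0 and 17.4 of the full lists. The PSMB11 promoter is shown because it is the member with a RefSeq start and no start peak at all. It held 4 CpG dinucleotides in its 300-base window (250 bases before to 50 after the start), against a median of 24.5 over the 42 proteasome genes with an entry and 8 over all genes with no start peak. The 250 bases before the start are from RefSeq GRCh38.p14, chr14:23041962-23042211, plus strand, with CCAAT boxes on either strand in capitals.

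PSMB11: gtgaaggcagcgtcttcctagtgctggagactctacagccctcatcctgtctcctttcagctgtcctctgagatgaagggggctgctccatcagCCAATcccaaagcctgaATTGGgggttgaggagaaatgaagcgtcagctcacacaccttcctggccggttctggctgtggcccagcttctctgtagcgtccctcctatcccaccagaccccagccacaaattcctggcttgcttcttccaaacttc

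The 6 ATPases of the 19S base, PSMC1 to PSMC6, unfold the substrate and thread it into the core. None of the 5 that were measured in all 6 libraries separated the genotypes. PSMC2 had the largest difference in favour of the wild type of any proteasome gene, -18.9 points, yet its values of 34.2, 40.1 and 64.4 in the knockout and 60.6, 76.2 and 58.4 in the wild type overlapped (exact permutation p = 0.3). The PSMC2 region is shared with PMPCB. PSMC6 stood at 41.4, 59.2 and 56.7 against 43.9, 39.9 and 31.5, the third lowest mean of the set, and overlapped. PSMC4 was the strongest ATPase gene, with means of 93.8 ± 0.89 and 92.8 ± 3.68. PSMC1 (chromosome 14, 90256553 to 90275429) had a weak peak over its start in knockout replicates 1 and 3 (folds 5.72 and 6.45) and in all wild-type libraries (5.34, 5.83 and 7.75). No peak was called there in knockout replicate 2.

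All 11 non-ATPase subunits of the 19S particle were called at a gene end in every list, against 54.7% of all genes. PSMD1, PSMD3 and PSMD8 had higher percentiles in every knockout library (3 of 11, 27.3%, against 26.0% of all genes). PSMD14 had lower ones (1 of 11, 9.09%, against 12.5%), and both shares were near the background. The folds of PSMD1, PSMD3 and PSMD8 overlapped, and so did their full-list percentiles. Their mean folds were 13.34 and 13.25, 13.48 and 12.84, and 18.5 and 18.63, knockout first. PSMD3, a subunit of the lid, stood at 84.3, 77.0 and 82.8 in the knockout and 65.1, 69.6 and 65.2 in the wild type, with means of 81.4 ± 3.86 and 66.7 ± 2.57. PSMD1, a scaffold of the base, stood at 81.8, 74.7 and 85.6 against 69.1, 68.8 and 68.1. PSMD8, another lid subunit, stood at 85.7, 94.7 and 90.2 against 83.3, 85.6 and 83.2, where the lowest knockout value barely cleared the highest wild-type one. PSMD14, the deubiquitinase that removes ubiquitin chains from the substrate, stood at 88.2, 85.9 and 76.4 in the knockout and 90.0, 88.3 and 90.3 in the wild type. Its groups were likewise separated by a narrow gap. PSMD3 and PSMD14, a pair with opposite directions, have promoters that cover no other gene record and are shown from RefSeq GRCh38.p14, plus strand, 5′ to 3′: PSMD3 chr17:39980557-39980806 and PSMD14 chr2:161308175-161308424. In capitals, PSMD3 holds a CCAAT box on the other strand, a STAT element (TTCNNNGAA) and a TGACNNNGC match at -37, and PSMD14 a GC box on the other strand and overlapping CCAAT boxes of both strands.

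PSMD3: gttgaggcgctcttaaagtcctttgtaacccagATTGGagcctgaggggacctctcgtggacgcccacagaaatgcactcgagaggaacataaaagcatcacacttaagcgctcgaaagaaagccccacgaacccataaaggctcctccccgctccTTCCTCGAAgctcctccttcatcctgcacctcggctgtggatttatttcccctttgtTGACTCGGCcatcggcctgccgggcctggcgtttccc
PSMD14: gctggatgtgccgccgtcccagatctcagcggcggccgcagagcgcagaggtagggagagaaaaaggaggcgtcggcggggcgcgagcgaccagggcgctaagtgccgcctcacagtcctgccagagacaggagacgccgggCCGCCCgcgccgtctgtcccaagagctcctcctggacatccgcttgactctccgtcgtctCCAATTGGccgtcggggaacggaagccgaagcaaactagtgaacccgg

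The other 7 non-ATPase genes overlapped between genotypes. The widest gaps between means were those of PSMD7, at 66.4 ± 8.32 in the knockout and 77.4 ± 7.66 in wild type, and of PSMD13, at 77.1 ± 7.57 and 88.1 ± 2.63. PSMD4, an intrinsic ubiquitin receptor, had means of 69.1 ± 11.4 and 65.7 ± 5.62, knockout first. PSMD2, the scaffold to which ubiquitin-binding factors dock, had the strongest peak of the 11, at 94.4, 96.9 and 90.6 in the knockout and 91.5, 88.3 and 91.7 in the wild type, with means of 94.0 ± 3.17 and 90.5 ± 1.95.

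Among the chaperones of 19S base assembly, PSMD9 and PSMD10 separated in opposite directions. PSMD9 stood at 79.2, 83.2 and 80.3 in the knockout and 70.8, 72.9 and 64.2 in the wild type. PSMD10, also known as gankyrin, stood at 97.2, 93.4 and 93.7 against 97.6, 98.2 and 98.5, and is the only X-linked gene of the 48. PSMD5 had means of 48.6 ± 11.7 and 42.4 ± 2.71 and overlapped.

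The activators open the gate of the core from its ends. PSME1 and PSME2 are the interferon-inducible subunits of PA28, PSME3 its nuclear relative and PSME4 the large activator PA200. PSME1 stood at 70.7, 79.8 and 74.2 in the knockout and 59.3, 69.6 and 45.5 in the wild type, with wild-type replicate 3 the lowest and replicate 2 just under the knockout range. With windows of 2 kb the genotypes of PSME1 overlapped. PSME2 stood higher, with means of 91.9 ± 4.53 and 87.3 ± 1.16, and PSME3 had means of 57.3 ± 2.83 and 49.5 ± 7.45, and both overlapped. PSME4 stood at 58.2, 59.2 and 66.0 in the knockout and 66.2, 72.9 and 68.1 in the wild type, again a narrow gap, and its peak also covers an end of ACYP2. The PSME1 promoter, which holds the antioxidant core at -86 and 3 GC boxes on the other strand in capitals, is from RefSeq GRCh38.p14, chr14:24135944-24136193, plus strand. It is shown as the activator with the largest difference.

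PSME1: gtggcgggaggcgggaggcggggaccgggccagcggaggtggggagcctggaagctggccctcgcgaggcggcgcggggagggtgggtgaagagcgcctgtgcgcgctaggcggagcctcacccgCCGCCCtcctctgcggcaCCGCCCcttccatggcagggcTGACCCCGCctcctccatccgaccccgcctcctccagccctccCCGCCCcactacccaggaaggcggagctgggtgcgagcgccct

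The inhibitor gene PSMF1 had no gene-end peak, and its start peak inside the gene record was weak. Its start percentiles were 15.4, 36.4 and 58.8 in the knockout and 28.2, 33.6 and 4.49 in the wild type, and overlapped. Among the core assembly chaperones, PSMG1 had the strongest peak of the whole set. It stood at 98.3, 98.3 and 99.4 in the knockout and 97.6, 97.9 and 98.1 in the wild type, with a gap of 0.80 points between means. This region (chromosome 21, 39182144 to 39184774) also covers an end of BRWD1. PSMG2 had a gene-end peak in 2 knockout lists and 1 wild-type list, and a start peak in every list with percentiles of 53.3, 43.6 and 54.5 against 49.3, 51.7 and 41.9. These values mix peaks at its 2 RefSeq starts and do not compare 1 peak between genotypes. In knockout replicate 1 the peak lay at 12657054 to 12658376 of chromosome 18. In knockout replicate 3 and every wild-type library it lay at 12702109 to 12703403, which also overlaps CEP76. PSMG3 stood at 64.2, 78.0 and 60.8 against 71.7, 81.8 and 64.2 and overlapped. PSMG4 had only a start peak, at 53.3, 57.0 and 64.4 in the knockout and 76.3, 75.0 and 72.4 in the wild type, which did not overlap. With start windows, wild type lay above knockout in 5 of 39 genes, PSMG4 among them (background 12.8%), and knockout above wild type in 8 of 39 (background 25.9%).

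Some gene-end peaks were shared with another coding gene. The gene-end region of 12 of the 39 genes covered an end of another protein-coding gene: 3 of the 5 with wild type above knockout (PSMA1, PSMB1 and PSME4), 2 of the 9 with knockout above wild type (PSMD9 and PSMG1) and 7 of the 25 that overlapped. In bulk ATAC-seq such a peak, and a change in it, cannot be assigned to either gene. The share of such peaks over all protein-coding genes was not counted, so these counts have no background. The 39 regions had a median width of 1576 bp (820 to 2831 bp).

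Around the proteasome genes, regions were formed by merging peaks of the 6 lists that shared at least 1 bp. Within 50 kb of a gene end lay 224 regions, of which 113 were called in all 6 lists and 19 were near more than 1 proteasome gene. WT-only regions numbered 10 of the 148 called in all wild-type lists (6.76%), against 13.1% around all protein-coding genes. KO-only regions numbered 0 of 115, against 0.256%. The 10 WT-only regions were weak. Their mean wild-type folds ran from 3.45 to 6.05 with a median of 4.73, while the 113 regions called in all 6 lists had a median of 13.4 (4.72 to 46.3), and the highest fold that a knockout list needed for a call was 3.31. At equal list length 0 of 119 regions were WT-only (background 4.63%), and none of the 10 was called in all 3 wild-type lists of that length. The count also moved with single libraries, to 16 of 148 without knockout replicate 2 (10.8%, against 17.5% around all genes) and 22 of 169 without wild-type replicate 1 (13.0%, against 16.5%).

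Most of the WT-only regions lay outside the promoters. Near PSMC1, one (chromosome 14, 90263811 to 90264425) lay inside the gene, 7258 bp from its nearer end, with wild-type folds of 4.27, 4.62 and 4.82, and another (90235084 to 90235798) lay 20755 bp away with folds of 3.84, 7.05 and 6.08. The region at the lower-coordinate end of PSMB8 (chromosome 6, 32840591 to 32841162) had folds of 5.77, 4.62 and 3.98. On PSMB8, which is read from the minus strand, this is the end away from its RefSeq starts. Near PSMB10, a region 47816 bp away (chromosome 16, 67984666 to 67985167) had folds of 4.06, 5.35 and 4.61. Of the 10 regions near the inducible genes that were called in all wild-type lists, 2 were thus WT-only (20%, against 13.1% around all protein-coding genes). At equal list length the count was 0 of 7 (background 4.63%). The other 6 WT-only regions of the full lists were near PSMG1 (3374 bp away), PSMG4 (2548 bp), PSMB1 (4612 bp), PSMG3 (9558 bp), PSMC2 (36494 bp) and PSMA2 (46737 bp). Of these, the region near PSMG3 had the highest single fold, 9.48 in wild-type replicate 2, with 4.70 and 3.98 in replicates 1 and 3.

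At equal length, 1 of 115 regions was KO-only (background 2.94%), near PSMD2 (chromosome 3, 184335602 to 184336561). Its folds were 4.82, 6.23 and 5.61 in the knockout. The full wild-type lists held the same region at 4.06, 4.86 and 5.24, below the rank at which those lists were shortened.

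**Figure D4:**
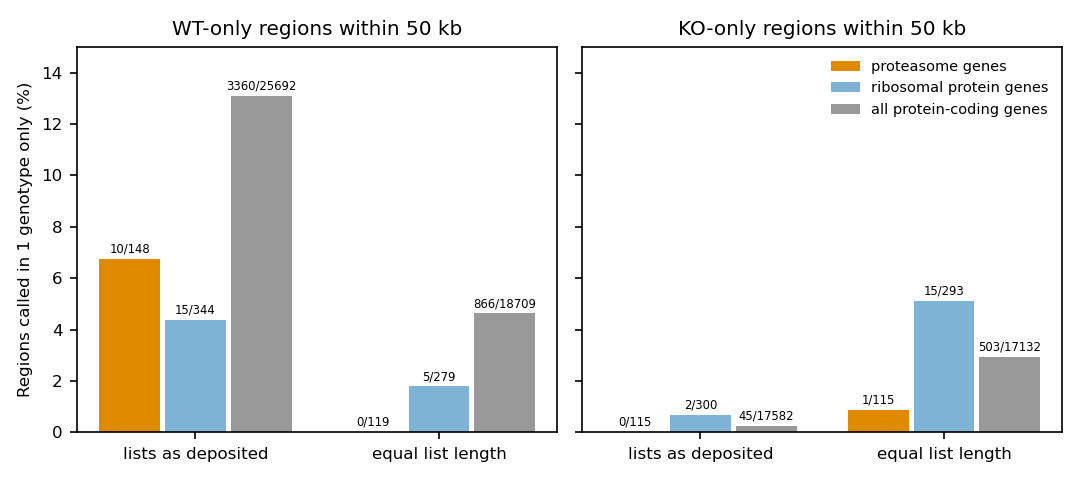
Share of regions within 50 kb of proteasome genes (orange), ribosomal protein genes (blue) and all protein-coding genes (grey) that were called in 1 genotype only, as percent of the regions called in all 3 lists of that genotype, with counts above the bars. WT-only regions fall from 6.76% to 0 of 119 near proteasome genes when the lists have equal length.

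The promoters of the 39 proteasome genes with a start peak in all 6 lists were searched on both strands for 8 short motifs in the 300-base RefSeq windows, a gene counting once if any of its windows held the letters. The windows averaged 1.23 a gene here and 1.48 over the 9231 protein-coding genes with a start peak in all 6 lists, which are the comparison. TGACNNNGC, the antioxidant response element core bound by NFE2L1, a known activator of proteasome genes, was present in 15 of 39 (38.5%), against 20%. The 15 genes were PSMA4, PSMB3, PSMB9, PSMC4, PSMC5, PSMD1, PSMD3, PSMD5, PSMD9, PSMD12, PSME1, PSME2, PSME4, PSMG1 and PSMG2. The interferon-stimulated element, GAAA, any 2 bases, GAAA, was present in 7 of 39 (17.9%), against 3.85%: PSMA4, PSMB4, PSMB8, PSMB10, PSME1, PSME2 and PSMG4. These include 2 of the 3 inducible subunits and both interferon-inducible PA28 genes. CCGGAA, the core bound by ETS factors, was present in 51.3% against 37.2%, AAGATGG of YY1 in 20.5% against 9.88%, and the STAT element TTCNNNGAA in 17.9% against 8.22%. CCAAT was present in 48.7% against 44.5%, the nuclear respiratory factor motif (GCGC, any base, TGCGC) in 12.8% against 14.7%, and the GC box GGGCGG in 69.2% against 79.8%. Matches of different motifs were counted separately where they overlapped. A match is a run of letters, not a site shown to be bound, and these shares were not tested.

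**Figure D5:**
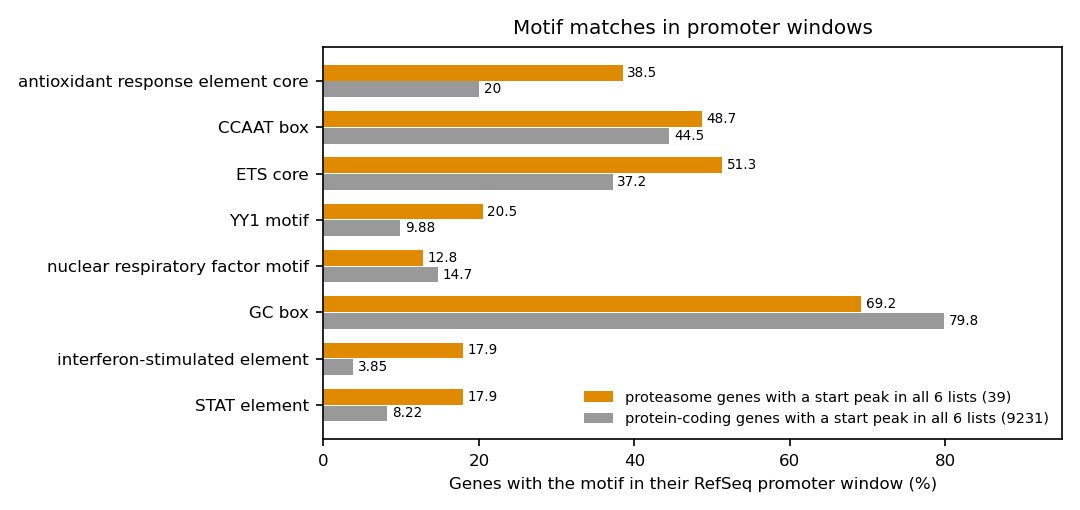
Percent of genes with each motif in a 300-base promoter window (x axis), for 39 proteasome genes (orange) and 9231 protein-coding genes (grey) with a start peak in all 6 lists. The antioxidant response element core (38.5% against 20%) and the interferon-stimulated element (17.9% against 3.85%) have a higher share in the proteasome genes, and the GC box a lower one (69.2% against 79.8%).

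Other genes of the pathway and another large housekeeping complex gave a frame for these values. Of 20 factors that assemble, bind, feed or control the proteasome, all 20 had a gene-end peak in every list, against 54.7% of all genes. Wild type lay above knockout in 4 (SEM1, UCHL5, NGLY1 and TXNL1; 20%, against 12.5% of all genes) and knockout above wild type in 6 (among them ADRM1, NFE2L1, DDI2, VCP and UBQLN4; 30.0%, against 26.0%), with a median difference of 2.30 points. NFE2L1 stood at 97.9 ± 0.35 for knockout and 92.2 ± 0.71 for wild type, and NGLY1, the enzyme that takes sugar chains off it, at 75.1 ± 3.15 and 86.8 ± 1.30. Among ribosomal protein genes, 82 of 86 were called at a gene end in all 6 lists, and the median difference over the 79 measured at equal length was 3.36 points. The ribosomal genes had 15 WT-only regions of 344 (4.36%), and the pathway factors 6 of 66 (9.09%), against 13.1% around all genes. At equal length these counts were 5 of 279 (1.79%) and 4 of 58 (6.9%), against 4.63%. These values describe the lists, and the differences between lists were not tested.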

How the data were processed

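ATAC-seq libraries of ARP1, 3 with the KDM6A knockout and 3 wild type, were grouped by their titles. Libraries were size selected and sequenced as pairs of 150 bp reads, per the labels' protocols. Trimmomatic, FastQC, MultiQC, Bowtie2, MACS2 2.1.2 and GRCh38 are named in the submitters' processing notes; what each did, and with which settings, is not given in the sources used here. Peaks were called in each library separately. Each deposited peak carries a score, a fold (a ratio over background) and the −log10 of a p-value and of a q-value, all from the authors' peak caller, and the score is 10 times the −log10 q-value as a whole number.

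One mitochondrial peak per list was left out. Gene records and start windows came from RefSeq GRCh38.p14, with start entries for 42 of 48 members. Fold values were whole multiples of 1 step per list (within 0.05 of a step), which gave the background pileup and each summit's pileup. Read depth is not in the files, so the background pileup stands for it. Peak numbers are not a measure of depth alone, since depth and genotype cannot be told apart in them. Percentiles used −log10 p-values in lists of 33055 peaks. Single genes were compared by two-sided exact permutation tests over 20 labellings, and lists by counts beside the same over all genes. Python 3.11.15, pandas 2.3.3, numpy 2.4.6 and scipy 1.17.1 were used, and the calling code was tested on simulated data. The members, gene lists and motifs were chosen with earlier results of these data known. Values in every library were given for catalytic, inducible and tissue-restricted subunits, members not called in all lists, members with WT-only or KO-only regions, the 3 highest and 3 lowest mean percentiles, and members whose genotypes did not overlap; promoter sequences shown were chosen after values were seen.

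Alternatives were a −log10 q-value minimum of 5, a fold of at least 4, full or equal list length, autosomes only, gene-end windows of 500 bp and 2 kb, start windows, regional windows of 10 and 100 kb, merging at 50% of the shorter peak, presence in 2 of 3 lists, ranking by fold, the peak nearest the gene end, a replicate block, leaving out each library and, added after the data were seen, each gene end counted on its own.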

Additional observations from a re-analysis of the deposited data

How the results depend on the processing

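Among summary counts, 84 alternatives stayed within 1.5 times the count as reported and 20 did not. Among single-gene differences 596 moved by less than 1 SD, 21 by more and 2 reversed. Reversal was counted only for genes whose genotypes did not overlap. Other genes also changed sign in the full lists. PSMC6 had means of 52.4 and 38.4 at equal length and of 55.2 and 63.0 in the full lists, knockout first. The full-list knockout means of PSMB8, PSMB9 and PSMB10 were likewise below the wild-type ones. The number of proteasome genes called at a gene end in all 6 lists ranged from 38 to 40, and with either end counting no gene was WT-only, under every alternative run. With each gene end counted on its own, an alternative chosen after seeing the data, 1 end was WT-only. KO-only gene ends counted 1 with presence in 2 of 3 lists. WT-only regions counted 5 with a fold of at least 4, 0 at equal list length, 6 within 10 kb, 19 within 100 kb and 46 with presence in 2 of 3 lists, and 11 to 22 when each library was left out in turn. KO-only regions counted 1 at equal list length, 1 within 100 kb and 6 with presence in 2 of 3 lists, and 0 to 1 when each library was left out. Among these alternatives, shares around all protein-coding genes were taken only for equal list length and for leaving out a library. The other region counts, and all counts with presence in 2 of 3 lists, have no background and do not describe the proteasome genes in particular. With full lists, wild type lay above knockout in 17 genes and knockout above wild type in 0, and PSMA4 and PSMA5 reversed to -1.24 and -4.54 points. When each library was left out in turn, wild type lay above knockout in 5 to 10 genes and knockout above wild type in 9 to 16. Narrower windows, fewer libraries and shorter lists change these counts by construction; further causes were not tested.

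Deviations of same-numbered libraries from their genotype means correlated across 10407 genes at -0.04, 0.01 and -0.17. Those of differently numbered libraries correlated at -0.11 to 0.14. The labels do not say whether same-numbered libraries were prepared together, and these values cannot settle it. With the replicate block, wild type lay above knockout within every pair in 7 of 39 genes (17.9%, against 17.9% of all genes) and knockout above wild type in 13 (33.3%, against 34.5%). Limits are the gap in background pileup between genotypes, taken as one in depth, and pileups as low as 14 at weak peaks such as PSMB5. A further limit is 3 libraries a genotype, with which no single gene can pass 0.05.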
